A study of Mus musculus with 8 samples.

Results

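The colony-stimulating factors and their receptors were followed in mouse macrophages given human or rat islet amyloid polypeptide (IAPP). The set holds the ligand genes Csf1, Csf2 and Csf3 and the receptor genes Csf1r, Csf2ra, Csf2rb, Csf2rb2 and Csf3r, each found as every array probe that the platform annotation assigns to its symbol. Of the 8 genes asked for, 7 were found, on 14 of 25697 probes, and Csf1r was not analysed here. The human IAPP group held 4 wells and the rat IAPP group held 4 wells, each read on 1 Illumina bead array. All wells held macrophages of the C57BL/6 strain, derived from bone marrow over 7 days in DMEM with 10% serum and 15% L929-conditioned medium. That medium was withdrawn 12 h before the peptides were added, and RNA was taken after 12 h with peptide at 15 µM. The protocol label gives the same figure in mM, and the dose unit here follows the titles and the design text. Wells without peptide are not among the samples, and every difference is human IAPP relative to rat IAPP. A replicate is 1 well, separate animals are not marked, and p-values reflect well-to-well spread that may be technical.

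Colony-stimulating factors are secreted proteins that keep myeloid cells alive and drive their growth and maturation. Csf1 encodes M-CSF, the growth factor on which most macrophages depend and which L929 cells secrete into their medium. Csf2 encodes GM-CSF, which acts through a receptor made of the ligand-binding chain Csf2ra and the signalling chain Csf2rb, and Csf3 encodes G-CSF, which acts through Csf3r and drives neutrophil production. Mice also carry Csf2rb2, a close copy of Csf2rb whose protein serves the interleukin-3 receptor. Human IAPP aggregates into amyloid, whereas rat IAPP does not readily do so.

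Promoter windows of 300 bases, running from 250 bases before to 50 bases after the annotated start, were available from RefSeq (GRCm38.p6) for 5 of the 7 genes. Csf3 and Csf2rb were not among them. The windows of 3 genes are shown because these genes stand for the 3 outcomes below: Csf1 was higher with human IAPP, Csf3r was lower, and Csf2ra passed no test. They are Csf1 at chr3:107760420-107760719 on the minus strand, Csf3r at chr4:126024409-126024708 on the plus strand and Csf2ra at chr19:61228369-61228668 on the minus strand, each written 5′ to 3′ along its gene. Capitals mark matches to the motifs searched.
Csf1: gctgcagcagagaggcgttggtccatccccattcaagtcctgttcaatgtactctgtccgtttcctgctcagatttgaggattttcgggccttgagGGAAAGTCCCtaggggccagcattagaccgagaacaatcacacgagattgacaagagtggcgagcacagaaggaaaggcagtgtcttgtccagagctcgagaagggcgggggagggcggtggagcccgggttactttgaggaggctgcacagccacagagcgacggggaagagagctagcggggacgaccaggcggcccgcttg
Csf3r: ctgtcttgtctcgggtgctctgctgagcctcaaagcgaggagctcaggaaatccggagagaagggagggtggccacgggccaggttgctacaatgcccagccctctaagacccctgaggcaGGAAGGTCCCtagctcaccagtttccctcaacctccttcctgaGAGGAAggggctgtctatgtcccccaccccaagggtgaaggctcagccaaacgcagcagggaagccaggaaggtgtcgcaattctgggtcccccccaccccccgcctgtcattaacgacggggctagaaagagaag
Csf2ra: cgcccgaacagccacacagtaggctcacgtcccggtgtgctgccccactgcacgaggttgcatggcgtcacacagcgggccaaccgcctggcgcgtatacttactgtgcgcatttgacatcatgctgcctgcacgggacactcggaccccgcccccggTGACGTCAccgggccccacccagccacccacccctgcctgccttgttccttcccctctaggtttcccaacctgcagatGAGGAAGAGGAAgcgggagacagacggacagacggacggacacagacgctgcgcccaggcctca

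Both strands were searched for the PU.1 core GAGGAA, the AP-1 motif TGANTCA, the STAT motif TTCNNNGAA, the CRE motif TGACGTCA and the NF-kB motif. The PU.1, STAT and NF-kB motifs share letters and can overlap, but no matches overlapped in these windows. Across 32841 RefSeq promoter windows of the same length, a match was held by 28.3% for PU.1, 7.81% for AP-1, 8.30% for STAT, 1.79% for CRE and 8.46% for NF-kB. The Csf1 window held 1 NF-kB match, whose first base lay at position -154 from the start. The Csf3r window held 1 NF-kB match at -129 and 1 PU.1 match at -86. The Csf2ra window held 2 abutting PU.1 matches at -14 and -8 and a CRE match at -92. Csf2rb2 held PU.1 matches at -167 and 30 and a STAT match at -15, and the Csf2 window held none of the 5 motifs. A match describes these letters and is neither a site nor a cause.

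Mean raw intensity was 1144 to 1368 units on the human IAPP arrays and 1180 to 1967 units on the rat IAPP arrays. Between 42.1% and 44.0% of probes were detected on human IAPP arrays, and between 42.7% and 47.6% on rat IAPP arrays. Rat IAPP replicate 4 was dimmer than the other rat IAPP arrays and correlated less with its group, and without it 2 member probes were called higher and 2 lower. Macrophage markers were present, with 8 of 8 genes detected on at least 4 arrays and summed log2 levels of 17.16 to 17.19 in human IAPP wells and 17.02 to 17.10 in rat IAPP wells. Of those 8, Cd14 was higher with human IAPP and Adgre1, Fcgr1 and Mertk were lower. All 7 dendritic cell markers and all 4 B cell markers were undetected on every array, as were 6 of 7 T and NK cell, 6 of 7 fibroblast and 4 of 5 mast cell and basophil markers. Among 5 endothelial cell markers, Esam was detected on at least 4 arrays and was higher with human IAPP. Neutrophil markers bear on Csf3r, and their values stand beside it.

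Among the 12 tested member probes, 2 were higher with human IAPP (16.7%), against 24.5% of all 11451 tested probes, and 3 were lower (25.0%), against 29.9% of all. A probe was tested when its detection p was under 0.05 on at least 4 of 8 arrays, and called when limma's adjusted p, over all tested probes, was under 0.05. The human IAPP and rat IAPP wells did not overlap on 4 of the 12 (33.3%), against 49.9% of all tested probes. These shares lie below those of all probes, and the median member difference was 0.09 on the log2 scale, against -0.04 over all tested probes. Both orders depend on the processing. The authors' rescaled values called 41.7% of member probes higher, against 30.2% of all, values without background correction 33.3%, against 24.7%, and median scaling 16.7%, against 7.00%. Without rat IAPP replicate 1 the higher share was 33.3% of member probes and 22.8% of all, and without human IAPP replicate 1 it was 25.0% and 22.9%. Lower calls took 37.5% of member probes detected on all 8 arrays, against 32.8% of all such probes. With no filter on dim probes 14.3% of member probes were higher and 14.3% lower, against 10.2% and 12.7% of all. Split by role, both tested ligand probes were higher. Of 10 receptor probes 0 were higher, against 24.5% of all tested probes. Lower calls took 3 of the 10 (30.0%), the same share as the 29.9% of all, and 7 were not called. The receptor count of 0 higher depends on the processing. The authors' rescaled values called Csf2ra, Csf2rb probe ILMN_2688262 and Csf2rb2 higher (limma's adjusted p = 0.00261, 0.0283 and 0.0026). Median scaling gave each of these a negative difference that was not called. With 2 of 4 ligand probes tested, the ligand count is a description. Csf3 passed the detection filter only through the human IAPP arrays, so that probe had to differ. The human IAPP arrays were enough to pass Csf1 too, which 1 rat IAPP array detected. With the main processing, the 3 lower receptor probes all belong to Csf3r. The 5 probes of the GM-CSF and interleukin-3 receptor chains had a call in neither direction there. In these bulk samples, fewer cells of a type and less RNA per cell cannot be told apart.

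**Figure D1:**
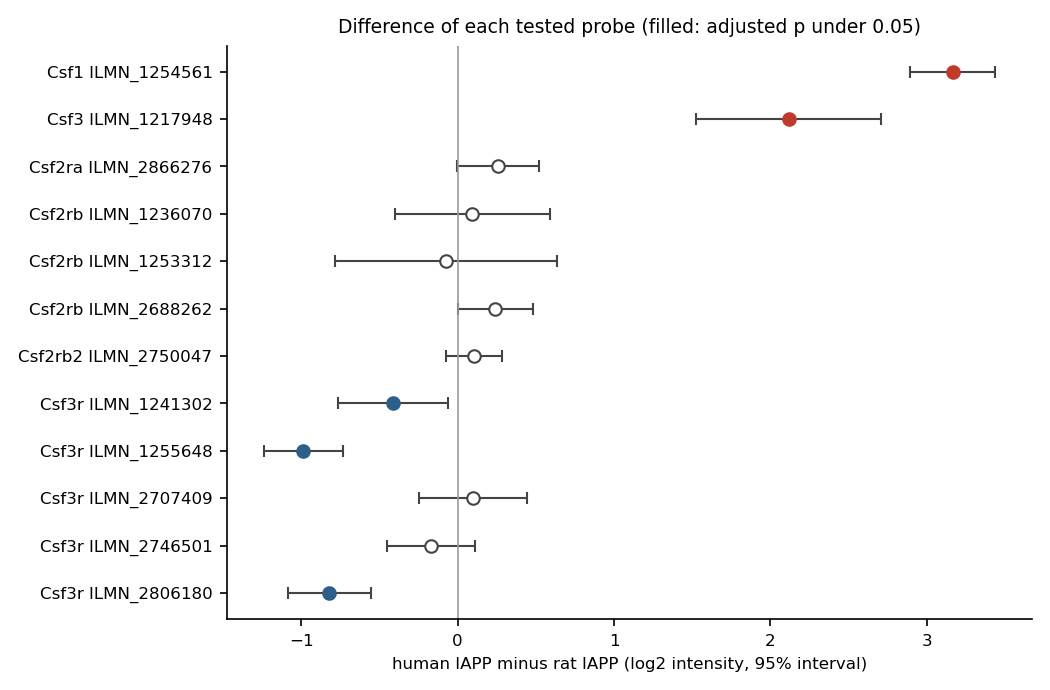
Difference between human IAPP and rat IAPP wells for the 12 tested probes, as log2 intensity with its 95% interval; filled points have an adjusted p under 0.05. Csf1 and Csf3 lie right of 0, with rat IAPP wells undetected on 3 and 4 arrays, so that the Csf3 point and its interval are fitted values and not a measured size, and 3 filled Csf3r points lie left of 0.

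Csf1, the M-CSF gene, was higher in human IAPP wells. Its log2 intensity was 8.84, 9.0, 9.05 and 9.19 in human IAPP wells, against 5.64, 5.70, 6.01 and 6.07 in rat IAPP wells. Raw intensities were 680.7, 679.2, 767.1 and 689.4 units in human IAPP wells, against 330.6, 363.7, 404.8 and 360.6 units in rat IAPP wells. The groups did not overlap, and the probe was detected on 4 of 4 human IAPP arrays and 1 of 4 rat IAPP arrays. The difference was 3.17 on the log2 scale (SE 0.12, 95% interval 2.89 to 3.44, n = 4 per group), which is 8.97-fold, with limma's adjusted p = 9.71e-08. A two-sided exact permutation test over the 70 splits of the wells gave p = 0.0286, the smallest this design allows. Any probe whose groups do not overlap reaches that value, and on 49.9% of all tested probes the groups did not overlap. The 4 human IAPP arrays were enough to bring Csf1 past the detection filter, so both p-values describe a probe selected where it was high. With 3 of 4 rat IAPP wells undetected, the fold is set against a level near background, and its size depended on the background correction: without correction the difference was 1.23, and in the authors' rescaled values 1.19.

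Csf3, the G-CSF gene, was also higher in human IAPP wells on the probe that was detected. That probe, ILMN_1217948, read 6.39, 7.26, 7.84 and 7.60 on the log2 scale in human IAPP wells, against 5.06, 5.23, 5.14 and 5.21 in rat IAPP wells. Raw intensities were 378.5, 408.1, 494.0 and 416.4 units in human IAPP wells, against 287.2, 329.0, 334.3 and 304.8 units in rat IAPP wells. The groups did not overlap, and all 4 human IAPP arrays but no rat IAPP array detected it. The fold is therefore a bound, at least 2.30-fold higher, taken as the human IAPP mean of 7.27 ± 0.63 over the mean of the dimmest detected level per rat IAPP array (SD, n = 4). The rat IAPP wells averaged 5.16 ± 0.08, which is background and not a measured level. The limma adjusted p was 0.000127, for a probe that entered the test through the human IAPP arrays alone. The human IAPP wells spread widely. Without background correction the fitted difference was 0.62 on the log2 scale, and in the authors' rescaled values, which keep the background, it was 0.58. The Csf3 bound therefore holds only for corrected values. Since Csf3 has a bound and Csf1 lies near background in rat IAPP wells, the order of these 2 differences is not fixed.

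The second Csf3 probe, ILMN_2744018, was undetected on all 8 arrays and did not follow the first. It read 284.9, 248.6, 274.9 and 257.3 units in human IAPP wells, against 332.5, 316.8, 315.2 and 307.4 units in rat IAPP wells, so raw values were lower in the human IAPP wells. All 8 lie at the background level, where undetected probes had medians of 270.3 to 295.7 units on human IAPP arrays and 290.6 to 329.3 units on rat IAPP arrays. Csf2, the GM-CSF gene, was undetected on all 8 arrays too. It read 290.9, 264.0, 288.2 and 266.9 units in human IAPP wells, against 284.1, 340.1, 335.2 and 281.4 units in rat IAPP wells. These groups overlap and hold no measured level, so neither probe was tested, and a change in GM-CSF transcript was not detectable on these arrays.

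**Figure D2:**
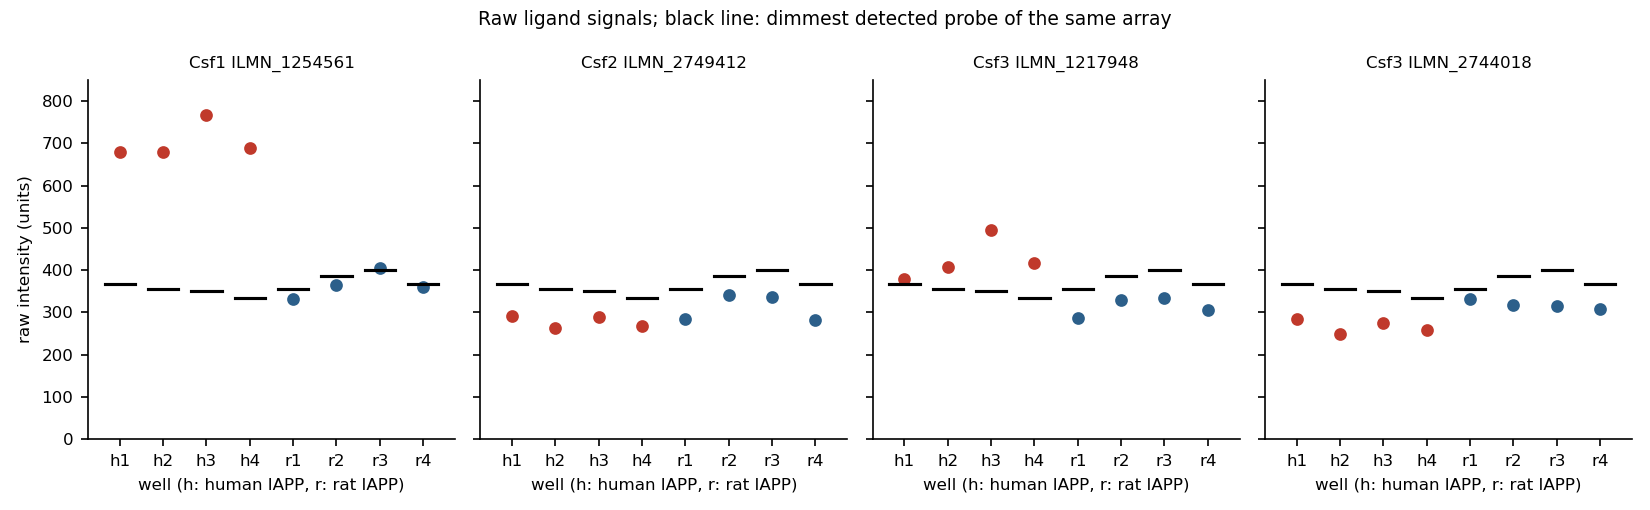
Raw intensity of the 4 ligand probes in each well, human IAPP wells (h1 to h4) left of rat IAPP wells (r1 to r4), with a line at the dimmest detected probe of the same array. Csf1 lies between 679.2 and 767.1 units in human IAPP wells and 1 Csf3 probe lies between 378.5 and 494.0 units, while Csf2 and the other Csf3 probe stay under the line in all wells.

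Csf3r, the G-CSF receptor gene, was lower in human IAPP wells on 3 of its 5 probes, and 1 of those calls was lost in 11 of 20 alternatives. Its ligand gene Csf3 was higher on 1 of 2 probes, which passed the detection filter only through the human IAPP arrays. The brightest probe, ILMN_1255648, read 9.25, 9.04, 9.16 and 8.97 in human IAPP wells, against 10.15, 10.20, 10.21 and 9.80 in rat IAPP wells, on the log2 scale. The groups did not overlap. Its difference was -0.99 (SE 0.11, 95% interval -1.24 to -0.74), a level 1.98-fold lower in human IAPP wells, with limma's adjusted p = 7.31e-05 and an exact permutation p of 0.0286. Probe ILMN_2806180 read 8.41, 8.77, 8.52 and 8.26 in human IAPP wells, against 9.15, 9.38, 9.26 and 9.44 in rat IAPP wells. These groups did not overlap either, and the difference was -0.82 (SE 0.12, 95% interval -1.09 to -0.56, limma's adjusted p = 0.000308), 1.77-fold lower.

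The other 3 Csf3r probes were dimmer and did not agree among themselves. ILMN_1241302 read 7.55, 6.87, 7.45 and 7.33 in human IAPP wells, against 7.84, 7.66, 7.46 and 7.88 in rat IAPP wells. Its groups overlapped, and its difference of -0.41 (SE 0.16, 95% interval -0.76 to -0.06) had a limma adjusted p of 0.0483 and an exact permutation p of 0.0571. That call was lost in 11 of 20 alternatives, including the authors' rescaled values (0.0802) and the fit without rat IAPP replicate 1 (0.112). ILMN_2707409 averaged 7.07 ± 0.34 in human IAPP wells and 6.98 ± 0.09 in rat IAPP wells (SD, n = 4 each), a difference of 0.10 with a 95% interval of -0.25 to 0.44. ILMN_2746501 was detected on 1 human IAPP array and 3 rat IAPP arrays and averaged 6.04 ± 0.16 in human IAPP wells and 6.21 ± 0.22 in rat IAPP wells. Its interval of -0.45 to 0.11 includes 0. Probe positions on the transcript were not used here, and the cause of the disagreement was not tested.

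Neutrophils carry Csf3r at high level, and their markers were read beside it. Of 10 neutrophil markers, 3 were detected on at least 4 arrays and 6 were undetected on all 8, and summed log2 levels were 11.11 to 11.63 in human IAPP wells and 11.33 to 11.53 in rat IAPP wells. S100a8, a neutrophil and monocyte alarmin gene, differed by -0.05 (limma's adjusted p = 0.751). Elane was higher by 0.44 (limma's adjusted p = 0.0496), detected on 3 of 4 human IAPP and 1 of 4 rat IAPP arrays. Mmp8 was lower by 1.46 on the log2 scale, detected on 1 of 4 human IAPP and 4 of 4 rat IAPP arrays. The part of these markers in the Csf3r result was not tested.

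**Figure D3:**
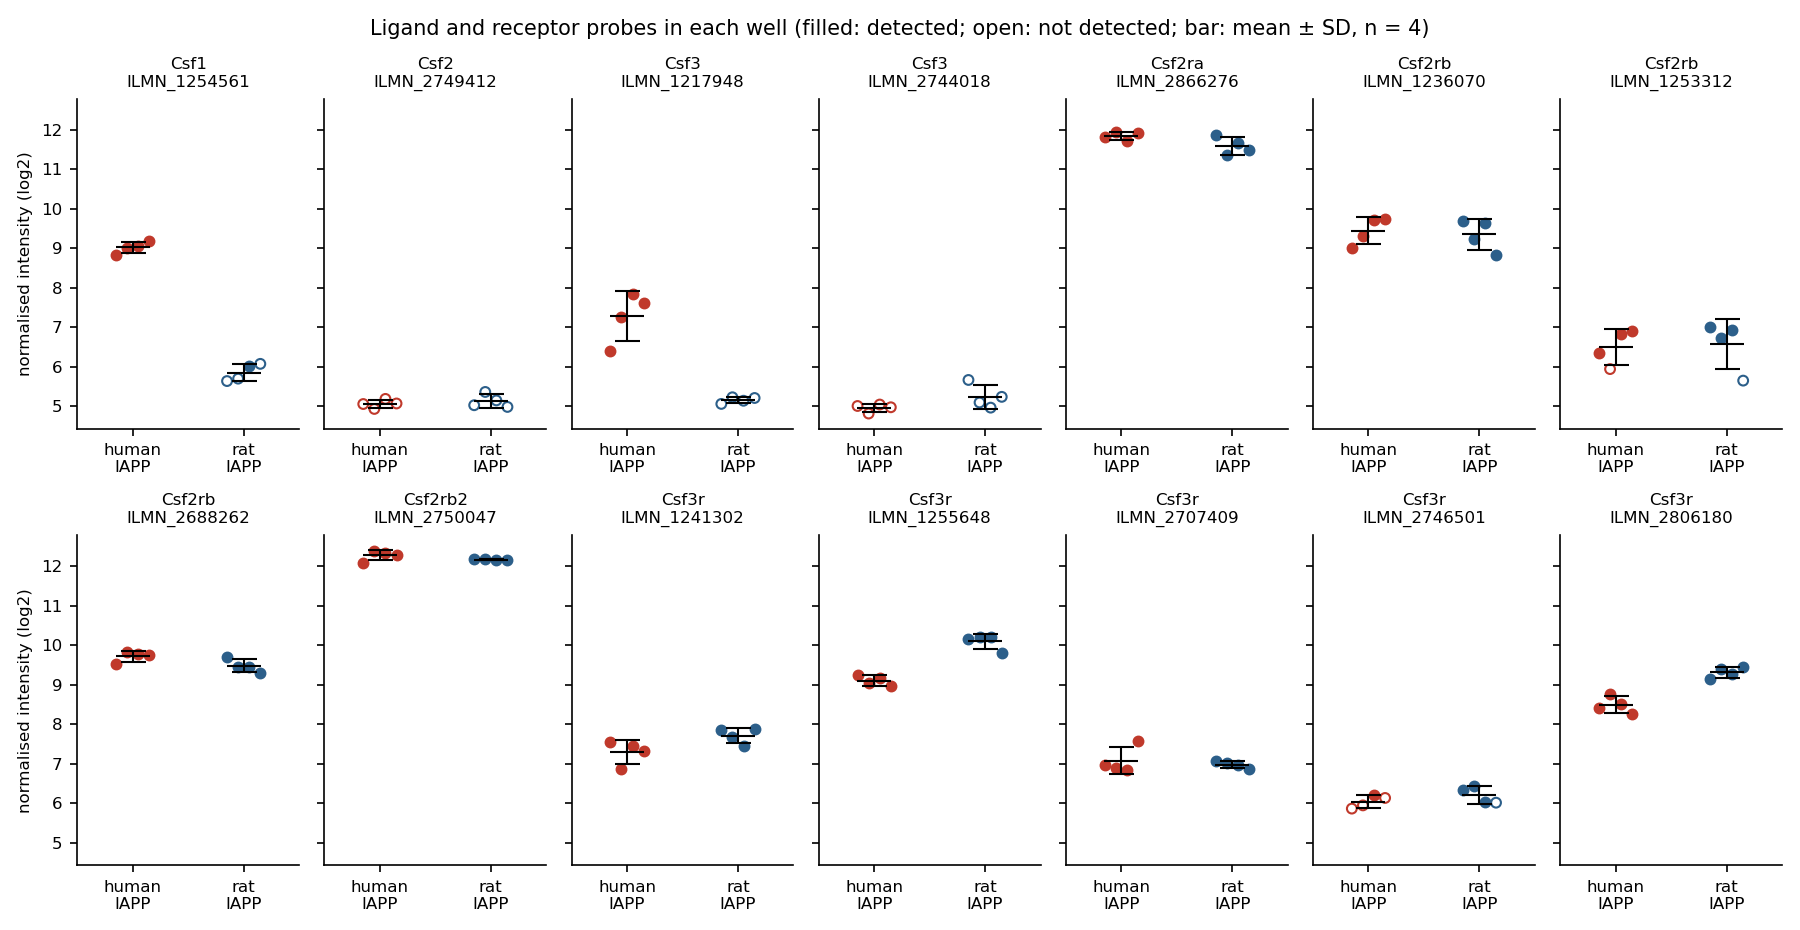
Normalised log2 intensity of each tested or listed probe in human IAPP wells (left) and rat IAPP wells (right), with the mean and SD of 4 wells; filled points are detected wells and open points are not. Csf1 is 8.84 to 9.19 in human IAPP wells and 5.64 to 6.07 in rat IAPP wells, and the 2 brightest Csf3r probes lie lower in human IAPP wells.

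No probe for the GM-CSF receptor chains passed the test. The Csf2ra probe was bright in both groups. It read 11.81, 11.93, 11.71 and 11.90 in human IAPP wells, against 11.86, 11.35, 11.65 and 11.47 in rat IAPP wells, and the groups overlapped. Its difference was 0.26 (SE 0.12, 95% interval -0.004 to 0.52, limma's adjusted p = 0.0884). This call changed with the processing: adjusted p was 0.0208 without rat IAPP replicate 1 and 0.00261 in the authors' rescaled values, while median scaling gave a difference of -0.11. The absence of a call therefore does not show equal levels, and the interval allows a 0.52 higher level in human IAPP wells.

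Csf2rb, the shared signalling chain, has 3 probes, and none passed the test. ILMN_2688262 averaged 9.72 ± 0.14 in human IAPP wells and 9.48 ± 0.17 in rat IAPP wells (SD, n = 4 each), a difference of 0.24 (95% interval 0.0002 to 0.48, limma's adjusted p = 0.0835). Without rat IAPP replicate 1 that difference was 0.32 with an adjusted p of 0.029, and without human IAPP replicate 1 it was 0.31 with 0.0392, while median scaling gave -0.21 with 0.485. ILMN_1236070 averaged 9.44 ± 0.34 in human IAPP wells and 9.34 ± 0.40 in rat IAPP wells, and its interval ran from -0.40 to 0.59, with -0.35 under median scaling. The dimmest probe, ILMN_1253312, lay near background, was detected on 3 arrays of each group, and its interval ran from -0.78 to 0.64.

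Csf2rb2 was the brightest member probe, reading 12.09, 12.38, 12.33 and 12.28 in human IAPP wells, against 12.18, 12.18, 12.16 and 12.14 in rat IAPP wells. The groups overlapped and the difference was 0.10 (SE 0.08, 95% interval -0.08 to 0.29, limma's adjusted p = 0.299), though the authors' rescaled values gave 0.27 with an adjusted p of 0.0026 and median scaling gave -0.21 with 0.454. Csf2rb and Csf2rb2 are near-identical genes, and a probe of one may also bind transcripts of the other.

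Around the receptors, signalling proteins split in both directions. Of 24 tested genes for proteins that carry or restrain signals from these receptors, 6 were higher (25.0%) and 11 lower (45.8%) with human IAPP. Over all 7809 tested genes 23.4% were higher and 32.0% lower, and the median difference was -0.13 in the list against -0.06 over all. Both directions mix proteins that carry signals with proteins that restrain them. Cish and Socs3 are also in the list of induced genes below. The authors' rescaled values gave 5 of the 24 lower, and 24.3% of all tested probes. Median scaling gave 2 of the 24 higher, and 7.00% of all tested probes. Src, a tyrosine kinase gene, was higher by 1.64 (adjusted p = 2.88e-06), or 0.76 without background correction, and Dok2, an adaptor that restrains kinase signalling, by 1.34 (adjusted p = 6.21e-06). Cbl, a ubiquitin ligase gene that helps degrade activated receptors, was higher by 0.62, a call lost with median scaling (0.23, adjusted p = 0.393). Gab1, a docking protein gene, was 2.19-fold lower, Pik3cd, which encodes a PI 3-kinase subunit, was 1.69-fold lower and Inpp5d, the SHIP-1 phosphatase gene, was lower by 0.43 on the log2 scale. Jak2 and Stat5a, the kinase and transcription factor that the GM-CSF receptor uses, were chosen after their values were seen and differed by -0.38 and -0.40 (adjusted p = 0.004 and 0.00846).

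Of 18 tested genes known to be induced by colony-stimulating factors, 12 were higher (66.7%) and 2 lower (11.1%) with human IAPP, and their median difference was 0.95, or 0.78 with 2 genes at their bound. Over all tested genes 23.4% were higher and 32.0% lower, with a median of -0.06. The 12 include Myc and Plau, which no rat IAPP array detected and which therefore had to differ. Among genes detected on all 8 arrays 10 were higher, and 26.9% of all probes so detected were. The list was drawn up with earlier results of these data known, and other stimuli induce many of its genes. Egr2, an early growth response transcription factor gene, was 22.9-fold higher, Ccnd1, the cyclin D1 gene, 11.2-fold and Osm, a cytokine gene, 9.29-fold (limma's adjusted p at most 2.19e-08, n = 4 per group). Without background correction the log2 difference of Egr2 was 3.12, against 4.51 with it, and that of Ccnd1 was 2.27, against 3.49. In the other direction, Dusp6, a phosphatase that restrains ERK, was 1.69-fold lower and Fos, an AP-1 subunit gene, 1.67-fold lower. Pim1, a kinase gene that STAT5 induces, was higher by 0.72, a call lost with median scaling, and Cish, also a STAT5 target, by 0.22 (adjusted p = 0.0382). The Cish call was lost in 14 of 20 alternatives, and median scaling, 1 of those 14, turned its sign. Pim1 and Cish were chosen after their values were seen. Socs2 and Socs3, of the same list, were not called, with differences of -0.32 and 0.17 (limma's adjusted p = 0.149 and 0.146).

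Transcription factors that act on the Csf1r gene also moved both ways. Of 11 tested, 6 were higher (54.5%) and 4 lower (36.4%) with human IAPP, with a median of 0.37, against 23.4% higher, 32.0% lower and a median of -0.06 over all tested genes. The 4 lower include Maf, which no human IAPP array detected and which therefore had to differ. With median scaling 3 of the 11 were higher, and 7.00% of all tested probes were. Among genes detected on all 8 arrays 2 were lower, and 32.8% of all probes so detected were. Ets2, Klf4 and Ets1 were 2.69-fold, 2.68-fold and 2.49-fold higher, and Ets2 is also in the list of induced genes above. Cebpa, a myeloid differentiation factor gene, was 2.78-fold lower, Fli1 was 1.81-fold lower, and Maf, undetected in all human IAPP wells, was at least 2.53-fold lower. These sizes depend on the background correction: without it the log2 difference of Cebpa was -0.49, against -1.47 with it, that of Maf was -0.44, and that of Ets1 was 0.81, against 1.31, so the Maf bound holds only for corrected values. Spi1, which encodes PU.1, the master factor of macrophages, was named outside the rule of smallest p given below. It differed by -0.02 (SE 0.11, limma's adjusted p = 0.916), and by -0.40 to 0.08 in the alternatives. The absence of a call does not show equal levels.

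Related ligands were below detection. Of 8 measured genes for related ligands and receptors, 7 were undetected on all 8 arrays, among them Il34, the alternative ligand of the M-CSF receptor, Il3 and Il5, whose receptors share the Csf2rb chain, and Flt3l. Il3ra, the interleukin-3 receptor alpha chain gene, was detected on all 8 arrays and differed by -0.06 (adjusted p = 0.711), though median scaling called it lower. Among 4 tested genes that control shedding of M-CSF and its receptor from the cell surface, 0 were higher and 1 was lower (25.0%, against 32.0% of all tested genes). That gene, Adam17, the main shedding protease, differed by -0.31 (adjusted p = 0.0372), a call lost in 11 of 20 alternatives.

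**Figure D4:**
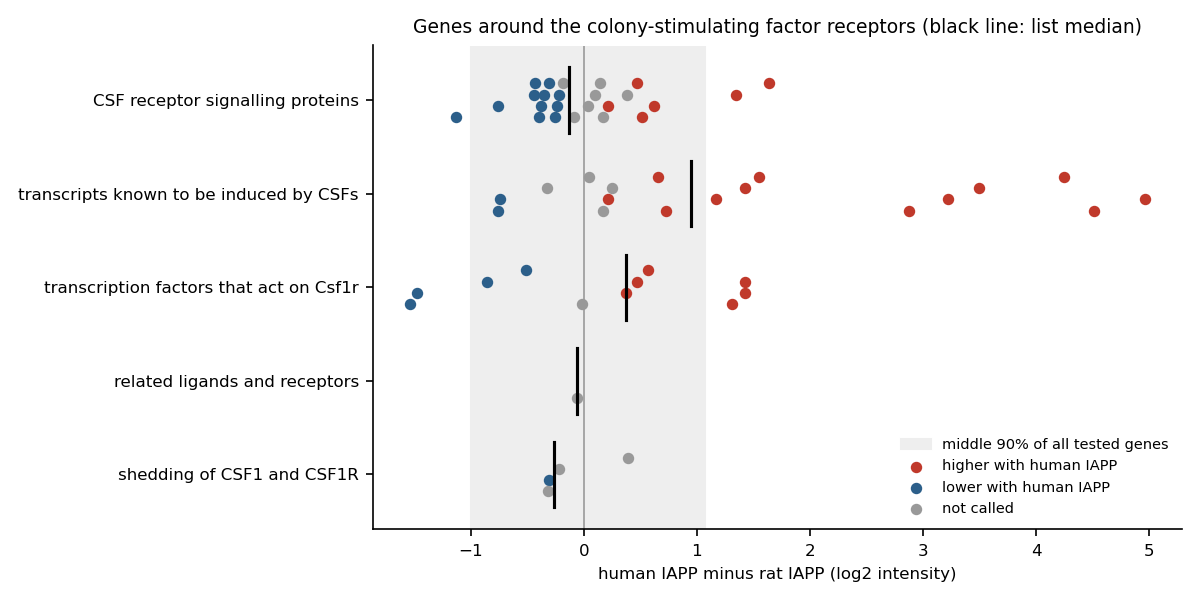
Difference between human IAPP and rat IAPP wells, as log2 intensity, for the tested genes of 5 lists; red points are higher, blue lower and grey not called, black lines are list medians, and the grey band runs from -0.99 to 1.07, the 5th to 95th percentile of all tested genes. Genes induced by colony-stimulating factors reach furthest to the right, with a median of 0.95, and signalling proteins lie on both sides of 0.

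The genes most like each called member were found by Pearson r of log2 level over the 8 arrays, given as a description. For Csf1 they were Gpr137b, Plk3 and Tnfrsf12a, at r of 0.999 each, and 696 genes passed 0.95. For Csf3 they were Serpinb6b (0.986), Mcm10 (0.983) and Ran (0.982), and 187 genes passed 0.95. For the brightest Csf3r probe they were Snx14, Il18 and Ppp2r3c (0.997, 0.997 and 0.996), with 642 genes over 0.95. For ILMN_2806180 they were H2ac11, Arid3a and Bcor (0.994, 0.994 and 0.991), and for ILMN_1241302 they were Dnajc28, Siglec1 and C030006K11Rik (0.962, 0.962 and 0.947). All these arrays share the split between 2 groups, which by itself raises r for any gene that differs.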

How the data were processed

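Per the file headers, the main deposited table gives linear, non-normalised intensity per probe and array, each followed by its detection p-value. The authors also deposited rescaled intensity values, linear and not centred, by a method not stated. They correlate with the raw signal at r of at least 0.999999 and have column medians of 361.8, 362.9, 359.2 and 367.7 for human IAPP replicates 1 to 4 and 352.6, 356.6, 353.8 and 361.1 for rat IAPP replicates 1 to 4. They served as an alternative only. The scanner and slides are not given in the labels or headers.

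Intensities were corrected in limma 3.58.1 (R 4.3.3) by normexp with controls inferred from detection p-values (offset 16), quantile normalised and logged (log2). The difference between human IAPP and rat IAPP wells was estimated by lmFit and eBayes with no covariate, and p-values were adjusted by Benjamini-Hochberg over the 11451 probes tested of 25697. A gene's brightest tested probe stood for it in the lists. Symbols came from the platform annotation, updated through RefSeq, with 23962 of 23978 named probes matched. Every well was kept; arrays were not identical in any pair, the smallest SD of log2 differences being 0.214. The number of arrays limits precision. Csf1r was not analysed here, and the planned Csf1 to Csf1r value was therefore not computed.

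Every member was named on every probe. Each pathway list named up to 3 genes per direction with the smallest p among called genes, and each called member probe the 3 most alike genes. The members and lists were chosen with earlier results of these data known. Alternatives covered background correction, scaling, detection filters, fit options, threshold, replicate block and leaving out each array. The steps were tested on simulated data, with 66 or 67 probes changed at each size. There 37.3% of changes of 0.5 on the log2 scale were called in the right direction. For changes of 1 the share was 83.6%, and for changes of 2 it was 100%. Of 158 calls, 6.96% were false.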

Additional observations from a re-analysis of the deposited data

Results flagged for a closer look

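In groups of 4 wells, a well was marked when its gap to the nearest other well, as a share of the group's range, exceeded Dixon's 95% critical value. Of 28 groups of member probes checked, 2 were marked, and chance marks about 5% of groups.

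Csf3r probe ILMN_1255648 read 9.80 in rat IAPP replicate 4, the lowest of its group, on the dimmest array of that group by mean raw intensity. Without that well the difference was -1.09 (limma's adjusted p = 1.91e-05), against -0.99 with it.

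Csf3r probe ILMN_2707409 read 7.58 in human IAPP replicate 4, above the other human IAPP wells. Without that well its difference was -0.07 (adjusted p = 0.523), against 0.10 with it, and it passed the test in neither case.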

How the results depend on the processing

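The member probes called higher numbered 2 as reported, 4 with no background correction, 5 in the authors' rescaled values, 1 where detection p had to be under 0.01 on 4 or more arrays, and 0 when probes had to be detected on all 8 arrays. That last setting tested 8 member probes and left out Csf1 and Csf3, and limma gave 2 at an unadjusted p under 0.05. Leaving out each well in turn gave 2 to 4, the highest without rat IAPP replicate 1. Member probes called lower numbered 2 to 3 in every setting run. Csf1 and Csf3 kept their direction and call wherever they were tested, as did the 2 brightest Csf3r probes. Cish was reversed by median scaling, at -0.19 (adjusted p = 0.496). Of all probes tested, 6234 were called as reported and 4599 to 6878 in the alternatives. Median scaling moved the median of all probes to -0.39 and the higher share of called probes to 15.6%, against 45.1% as reported, while the authors' rescaled values gave 55.4% and cyclic loess 50.6%. Median scaling gave 2 signalling genes and 3 transcription factors higher, and 7.00% of all tested probes. The authors' rescaled values gave 5 signalling genes lower, and 24.3% of all tested probes. Same-numbered wells did not pair (correlations of -0.11, -0.006, 0.17 and -0.02), and not every well correlated best with its own number. The fit with a replicate block called 2 member probes higher and 3 lower, and 5891 of all probes.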
